A study of Homo sapiens with 3 samples.

Results

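Expression of 7 transcription factor genes of the epithelial differentiation programme was examined after knockdown of KLF5 in TE5 cells, an established human line of esophageal squamous carcinoma. The genes were GRHL1, GRHL2, GRHL3, OVOL1, OVOL2, ZNF750 and PRDM1, chosen by name. They are 7 of the 52992 genes to which transcripts could be assigned, and their 40 transcripts are part of the 196354 listed for each library. There were 3 RNA-seq libraries, 2 from TE5 cells transfected with shKLF5, a short hairpin RNA against KLF5, and 1 from TE5 cells transfected with a scramble control, all harvested after 48 h. Whether shKLF5 libraries 1 and 2 came from different hairpins or different cultures is not in the labels, so this pair may differ only for technical reasons. The p-values rest on how far the pair differs for each gene and, in larger part, on the same spread pooled over all genes. Scramble has no replicate and is taken to vary as the pair does.

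Grainyhead factors, encoded by GRHL1, GRHL2 and GRHL3, are DNA-binding proteins that switch on genes of epithelial junctions and of the skin barrier. OVOL1 and OVOL2 are zinc finger repressors that keep cells epithelial by holding down mesenchymal regulators such as ZEB1, and ZNF750 is a zinc finger protein induced by TP63 that drives late differentiation of squamous cells together with KLF4. PRDM1, also called BLIMP1, is a repressor best known from plasma cells that is also made in differentiating keratinocytes.

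The totals were 33544752 and 32720563 estimated counts in shKLF5 libraries 1 and 2 and 33448976 in scramble. KLF5 itself, the check of the labels, had 1333 and 1531 counts in the shKLF5 libraries, against 8402 in scramble. The squamous markers TP63, KRT5, SOX2, DSG3, KRT6A and PERP were well counted in every library, the lowest value being 2047 counts for TP63. The KRT14 marker had 37 and 10 counts in the shKLF5 libraries and 659 in scramble. Summed over the 7 squamous markers the level was 1052 and 529 TPM in the shKLF5 libraries, against 3474 TPM in scramble. At least 10 counts were found for 19389 and 19524 genes in the shKLF5 libraries and for 16993 in scramble.

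The 7 factors were all modestly or barely expressed in these cells. In TPM, which are per transcript length, they fell into a group of 3 with a level of 2 to 8 and a group of 4 below 1. PRDM1 averaged 5.004 ± 3.12 TPM in the shKLF5 libraries (SD, n = 2) and had 2.59 TPM in scramble. GRHL3, the grainyhead factor of the skin barrier, averaged 3.76 ± 0.519 TPM in the shKLF5 libraries (SD, n = 2) and had 6.25 TPM in scramble, the highest of the 7 there. OVOL2 averaged 2.76 ± 0.355 TPM in the shKLF5 libraries (SD, n = 2), against 2.74 TPM in scramble. Between PRDM1, GRHL3 and OVOL2 the order was not fixed, since PRDM1 led in shKLF5 library 1 with 7.21 TPM and GRHL3 led in shKLF5 library 2 with 3.39 TPM and in scramble.

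GRHL1 averaged 0.676 ± 0.0163 TPM in the shKLF5 libraries (SD, n = 2), against 0.406 TPM in scramble. OVOL1 averaged 0.3002 ± 0.0587 TPM in the shKLF5 libraries (SD, n = 2), against 0.0802 TPM in scramble, and ZNF750 averaged 0.265 ± 0.0798 TPM there (SD, n = 2), against 0.100 TPM in scramble. OVOL1 and ZNF750 lay within each other's spread in the shKLF5 libraries and changed places in scramble. GRHL2, an activator of CDH1 and claudin genes in many epithelia, was lowest in every library, with 0.140 and 0.124 TPM in shKLF5 libraries 1 and 2, against 0 TPM in scramble. Among 19428 protein-coding genes ranked by TPM, GRHL3 stood at 9803 and 9853 in the shKLF5 libraries, against 7917 in scramble. KLF5 stood at 2750 and 2223 there, against 291 in scramble.

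**Figure D1:**
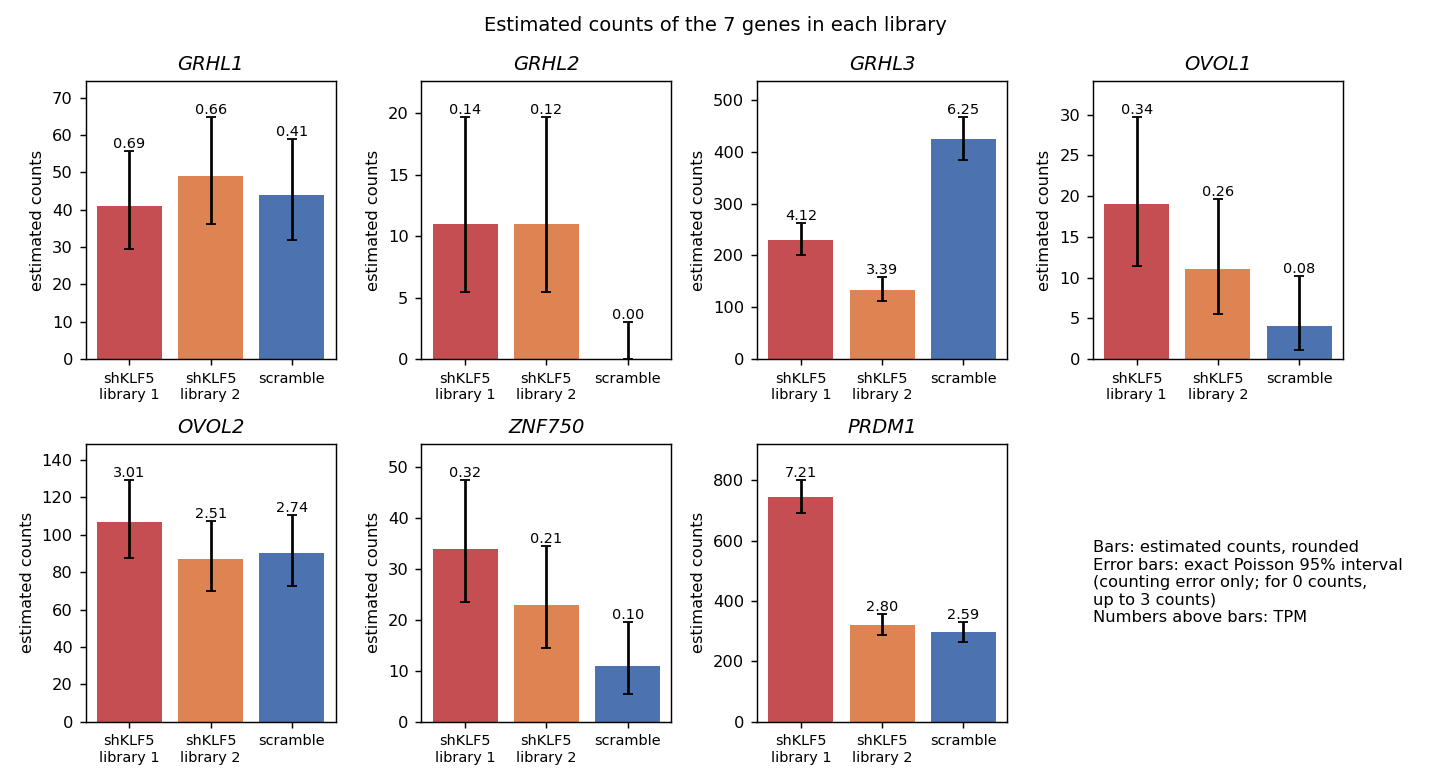
Estimated counts of each gene (bars) in shKLF5 libraries 1 and 2 and in scramble, with exact Poisson 95% intervals for counting error only and the TPM printed above each bar. GRHL3 lies below scramble in both shKLF5 libraries, while the bars of GRHL1 lie within each other's intervals.

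Set against scramble, no factor passed. After Benjamini-Hochberg adjustment over 20629 genes, edgeR's quasi-likelihood test called 0 of the 7, on a background of 0% of all genes. The unadjusted p was under 0.05 for 2 of the 7, GRHL3 and GRHL2, on a background of 9.18% of genes (1893 of 20629). By value, GRHL2, OVOL1 and ZNF750 were higher in both shKLF5 libraries, GRHL1, GRHL3 and OVOL2 were lower in both and PRDM1 went opposite ways. Over all genes tested, 37.9% lay above scramble in both, 36.5% below it in both and 25.5% went opposite ways. The median log2 fold change of the 7 was 0.43, the value of PRDM1, beside 0.04 over all genes. It was the same with the scramble count of GRHL2, 0, set at 3. By library the median of the 7 was 0.90 in library 1 and -0.22 in library 2, so it had no common direction. DESeq2 called 0.687% of the genes to which it gave an adjusted p, and edgeR's legacy fit called 0.102% of genes. Neither called any of the 7. KLF5 itself, with a log2 fold change of -2.96, was called by DESeq2 but not by edgeR's quasi-likelihood test. A factor that this test did not call may therefore still have changed.

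**Figure D2:**
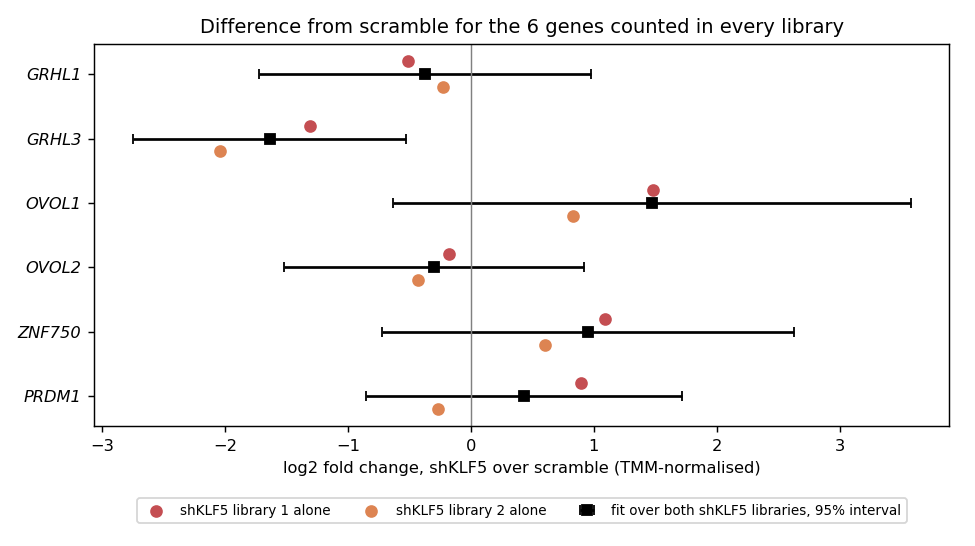
Log2 fold change over scramble (x axis) of the 6 genes with counts in every library, from the fit over both shKLF5 libraries with its 95% interval (black) and for each shKLF5 library alone (coloured points). The interval of GRHL3 runs from -2.75 to -0.53, and those of the other 5 genes include 0.

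GRHL3 lay below scramble by value in both knockdown libraries and had the smallest unadjusted p of the 7 by edgeR's quasi-likelihood test, 0.00945. GRHL3 (ENSG00000158055; GRCh38 chromosome 1, 24319322 to 24364482, plus strand) had 230 and 133 counts in shKLF5 libraries 1 and 2, against 424 in scramble. Both shKLF5 libraries lay below scramble, and their Poisson 95% intervals, 201 to 262 and 111 to 158 counts, did not reach the scramble interval of 385 to 466. In normalised CPM, read counts scaled to library size with edgeR's TMM factors, the level was 5.12 ± 1.83 in the shKLF5 libraries (SD, n = 2), against 15.9 in scramble, which is 3.11-fold lower. Its log2 fold change from scramble was -1.64, with an SE of 0.48 and a 95% interval of -2.75 to -0.53. It was -1.30 in library 1 and -2.04 in library 2. The adjusted p by edgeR's quasi-likelihood test was 0.474, and it ran from 0.277 to 0.872 over the 10 settings that gave one. With limma on log2(TPM + 1) the log2 difference was -0.61, with an unadjusted p of 0.208.

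As kallisto, which estimated the counts, divided the reads among transcripts, the lower GRHL3 level lay mostly in 1 transcript. That division comes without an error here, so the transcript values have no test. GRHL3-204, the coding transcript with the most upstream annotated start, had 84.9 and 29.2 estimated counts in the shKLF5 libraries, against 297.4 in scramble. It was 4.72-fold and 13.3-fold lower in CPM and made up 25.5% and 10.2% of GRHL3 TPM in the shKLF5 libraries, against 56.8% in scramble. GRHL3-203, whose first exon starts 244 bases further on and whose last exon ends at the same base, had 115.7 and 62.0 counts in the shKLF5 libraries, against 99.4 in scramble. It was thus higher than scramble in library 1 by raw count and 1.16-fold lower after TMM scaling, and 2.10-fold lower in library 2.

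The remaining GRHL3 transcripts held few reads. The short coding transcript GRHL3-206 had 8.1 and 3.8 counts in the shKLF5 libraries, against 11 in scramble. The retained-intron transcripts GRHL3-208 and GRHL3-205 had 0 and 1.5 counts in library 1 and 8.0 and 9.2 in library 2, against 1.2 and 0 in scramble. Coding transcripts together held 81.1% and 46.8% of GRHL3 TPM in the shKLF5 libraries, against 98.1% in scramble. Over all protein-coding genes that share was 88.9% and 88.4% in the shKLF5 libraries, against 91.0% in scramble, and the share of retained-intron transcripts was 5.31% and 5.62%, against 4.39% in scramble. The part of this shift in the GRHL3 values was not tested.

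The window ahead of the upstream GRHL3 start is shown because, as kallisto divided the reads, that start carried most of the lower count. KLF family proteins bind CACCC boxes and GC boxes. The capitals mark the letters CACCC, which read GGGTG on the opposite strand, and likewise the GC box letters GGGCG, which there read as CGCCC. The sequence is RefSeq's on GRCh38.p14, chr1:24319107-24319316, plus strand, from base -250 to base -41 relative to the RefSeq start at 24319357, which lies 35 bases inside GRHL3-204.
GRHL3 upstream window: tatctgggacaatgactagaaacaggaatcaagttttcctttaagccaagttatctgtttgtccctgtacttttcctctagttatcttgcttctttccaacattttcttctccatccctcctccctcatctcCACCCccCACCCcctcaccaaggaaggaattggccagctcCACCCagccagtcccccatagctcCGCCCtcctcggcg
It holds 3 matches to CACCC and 1 to GGGCG, with no overlap between them. Such letters are common: of 35116 RefSeq promoter windows cut to the same 210 bases, 48.9% held CACCC and 50.4% held GGGCG on either strand. Neither the grainyhead letters AACCGGTT, found in 0.108% of windows, nor the OVOL letters CCGTTA, found in 1.99%, were in this window.

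PRDM1 was divided between the shKLF5 libraries. PRDM1 (ENSG00000057657; GRCh38 chromosome 6, 106086320 to 106109939, plus strand) had 745 and 321 counts in shKLF5 libraries 1 and 2, against 296 in scramble. Library 1 stood far above the others, and the Poisson 95% intervals of library 2 (287 to 358) and scramble (263 to 332) overlapped. The level was 15.0 ± 8.17 CPM in the shKLF5 libraries (SD, n = 2), against 11.1 CPM in scramble. Its log2 fold change from scramble was 0.43, with an SE of 0.56 and a 95% interval of -0.86 to 1.72. It was 0.90 in library 1 and -0.27 in library 2. The adjusted p by edgeR's quasi-likelihood test was 0.820, and the gap between the shKLF5 libraries was wider than the difference from scramble.

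Within PRDM1 the summed CPM of its 2 annotated start regions went opposite ways, though not every transcript did. PRDM1-203 and PRDM1-202, which share the upstream start, had 681.2 and 278.5 estimated counts together in the shKLF5 libraries, against 174.5 in scramble. PRDM1-203 alone, the longest coding transcript, had 525.0 and 228.1 counts, against 120.2 in scramble, and PRDM1-202 had 156.2 and 50.4, against 54.3 in scramble. PRDM1-201, which starts 12620 bases downstream, had 48.7 and 36.8 counts in the shKLF5 libraries, against 118.2 in scramble. PRDM1-205, a short coding transcript from the same region, had 12.5 and 1.3 counts in the shKLF5 libraries and 0 in scramble.

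Taking all transcripts by start, those from the upstream region (0 to 2034 bases from the first start) were 2.88-fold and 1.23-fold higher in CPM in libraries 1 and 2 than in scramble. Those from the internal region (12286 to 12620 bases) were 2.59-fold and 4.004-fold lower. In TPM the internal region did not go 1 way, with 1.48 and 0.451 in the shKLF5 libraries, against 1.01 in scramble, since TPM weights the few reads of the short PRDM1-205 more. The internal region held 20.5% and 16.1% of PRDM1 TPM in the shKLF5 libraries, against 38.8% in scramble. By estimated count it held 8.42% and 12.2% in the shKLF5 libraries, against 40.6% in scramble. Both shares put the 2 shKLF5 libraries below scramble, although the gene total did not. Kallisto divides reads of shared exons among transcripts without an error in these files, so these are values with no test.

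**Figure D3:**
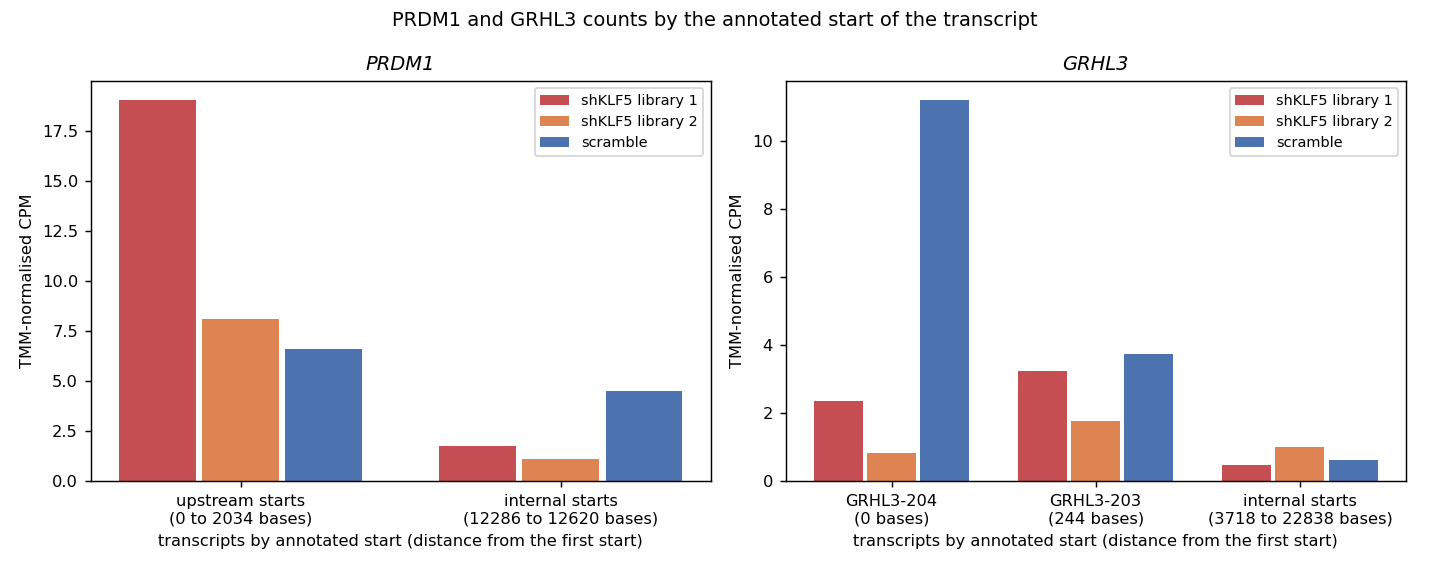
TMM-normalised CPM (y axis) of PRDM1 and GRHL3 transcripts grouped by annotated start, for shKLF5 libraries 1 and 2 and scramble, with no error since each bar is 1 library. Internal PRDM1 starts and GRHL3-204 lie below scramble in both shKLF5 libraries, and upstream PRDM1 starts lie above it.

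Both PRDM1 windows are shown because the summed CPM behind them moved apart. They are RefSeq's on GRCh38.p14, plus strand, from base -250 to base -41, with the same letters in capitals. The upstream window is chr6:106086086-106086295, for the RefSeq start at 106086336. The internal window is chr6:106098691-106098900, for the RefSeq start at 106098941, 1 base from the start of PRDM1-201.
PRDM1 upstream window: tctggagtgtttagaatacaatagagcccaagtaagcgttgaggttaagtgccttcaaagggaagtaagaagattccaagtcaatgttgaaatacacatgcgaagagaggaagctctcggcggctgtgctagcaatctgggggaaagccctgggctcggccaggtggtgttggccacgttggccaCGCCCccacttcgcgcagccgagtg
PRDM1 internal window: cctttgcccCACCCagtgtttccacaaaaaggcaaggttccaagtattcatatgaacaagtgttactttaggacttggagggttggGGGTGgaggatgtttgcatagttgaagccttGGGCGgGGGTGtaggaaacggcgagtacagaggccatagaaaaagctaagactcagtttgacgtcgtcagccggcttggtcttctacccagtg
The upstream window holds 0 matches to CACCC and 1 to GGGCG, and the internal window holds 3 and 1, with no overlap. Neither window holds AACCGGTT or CCGTTA. The shares of all windows given for GRHL3 apply here too.

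GRHL1 had a similar count in all 3 libraries but a different division among its transcripts. GRHL1 (ENSG00000134317; chromosome 2, 9951693 to 10002277, plus strand), an activator of desmosomal cadherin genes, had 41 and 49 counts in shKLF5 libraries 1 and 2, against 44 in scramble. The 3 values lay within each other's Poisson 95% intervals, the widest of which ran from 36.2 to 64.8 counts. The log2 fold change was -0.37 (SE 0.58), with an adjusted p of 0.857 by edgeR's quasi-likelihood test, and its sign turned with library size alone (0.05), length-scaled TPM (0.29) and limma on log2(TPM + 1) (0.25).

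The coding transcript GRHL1-201 had 2.5 and 0 estimated counts in the shKLF5 libraries, against 40.4 in scramble. GRHL1-205, annotated as a target of nonsense-mediated decay, had 19.4 and 27.1 counts in the shKLF5 libraries, against 0 in scramble, and GRHL1-204, of the same class, had 4.7 and 6.8, against 0. The retained-intron transcript GRHL1-208 had 11.4 and 15.2 counts in the shKLF5 libraries, against 3.6 in scramble, and GRHL1-207 had 3.1 and 0, against 0. Coding transcripts therefore held 3.63% and 0% of GRHL1 TPM in the shKLF5 libraries, against 94.5% in scramble. These shares rest on under 50 reads a library. The share of all nonsense-mediated decay transcripts over protein-coding genes was 2.20% and 2.32% in the shKLF5 libraries, against 1.75% in scramble. The part of that shift in the GRHL1 values was not tested.

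**Figure D4:**
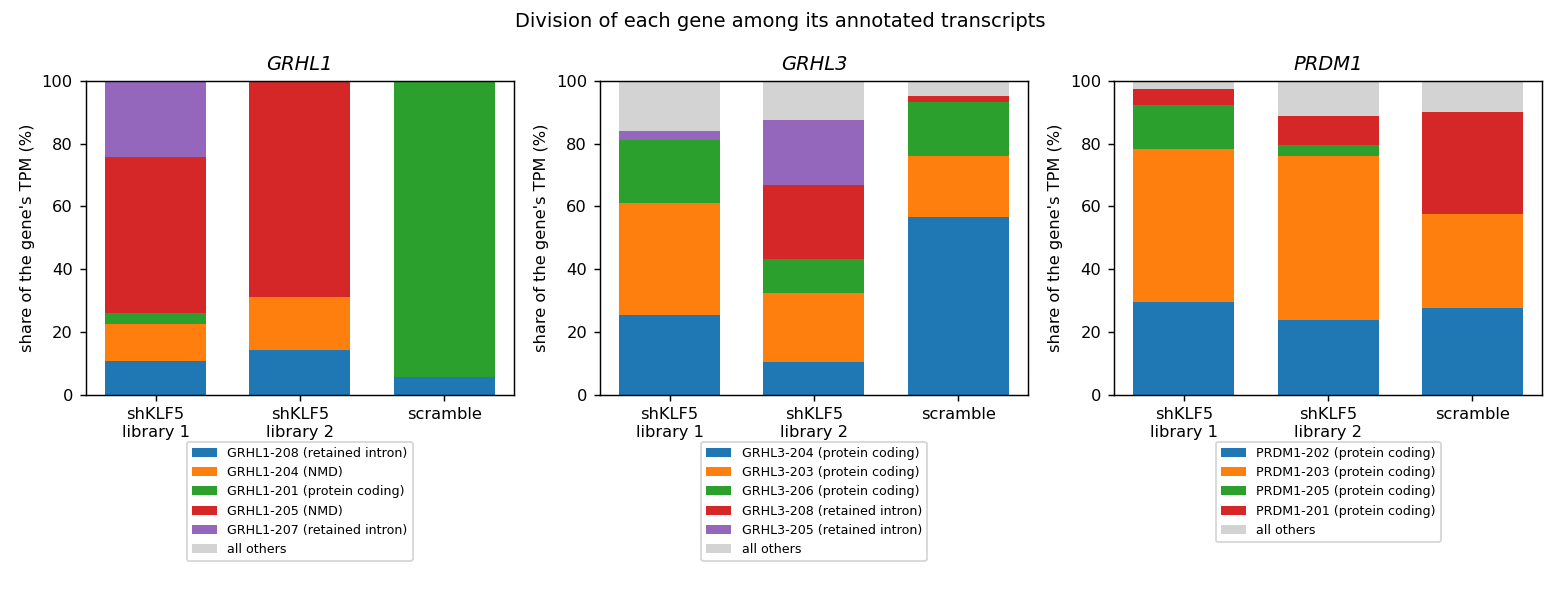
Share of TPM (y axis, %) that each annotated transcript took of GRHL1, GRHL3 and PRDM1 in shKLF5 libraries 1 and 2 and in scramble; NMD is nonsense-mediated decay, and transcripts under 10% in every library are pooled as others. GRHL1-201 takes 3.63% and 0% in the shKLF5 libraries, against 94.5% in scramble, GRHL3-204 takes 25.5% and 10.2%, against 56.8% in scramble, and PRDM1-201 takes 5.02% and 9.37%, against 32.6% in scramble.

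The OVOL2 difference lay within its error. OVOL2 (ENSG00000125850; chromosome 20, 17956979 to 18059188, minus strand) had 107 and 87 counts in shKLF5 libraries 1 and 2, against 90 in scramble. Scramble lay between the shKLF5 libraries by count, but above both in normalised CPM, with 2.99 and 2.50 against 3.39 in scramble. The log2 fold change of OVOL2 from scramble was -0.30, with an SE of 0.53 and a 95% interval of -1.52 to 0.92. Its adjusted p was 0.874 by edgeR's quasi-likelihood test. The sign turned with library size alone (0.13). OVOL2-201, its 1 coding transcript in the tables, had 64.0 and 61.7 counts in the shKLF5 libraries, against 51.7 in scramble. Of the noncoding transcripts, OVOL2-203 had 32.3 and 0 counts in the shKLF5 libraries, against 0 in scramble, and OVOL2-205 had 9.6 and 22.9, against 37.2. OVOL3, the remaining gene of the family, had 0 and 5 counts in the shKLF5 libraries, against 1 in scramble.

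ZNF750, OVOL1 and GRHL2 were near the limit of detection and higher by value in both shKLF5 libraries. ZNF750 (ENSG00000141579; chromosome 17, 82829435 to 82840578, minus strand) had 34 and 23 counts in shKLF5 libraries 1 and 2, against 11 in scramble. Library 2 overlapped scramble in its Poisson 95% interval (14.6 to 34.5 against 5.49 to 19.7 counts) and library 1 (23.6 to 47.5) did not. All of these counts were assigned to ZNF750-201. Its log2 fold change from scramble was 0.96, with an SE of 0.72 and a 95% interval of -0.72 to 2.63, and its adjusted p was 0.699 by edgeR's quasi-likelihood test.

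OVOL1 (ENSG00000172818; chromosome 11, 65787022 to 65797219, plus strand) had 19 and 11 counts in shKLF5 libraries 1 and 2, against 4 in scramble. The interval of library 2 (5.49 to 19.7) overlapped that of scramble (1.09 to 10.2), and that of library 1 began at 11.4. The log2 fold change was 1.47 (SE 0.91), with an adjusted p of 0.641 by edgeR's quasi-likelihood test. Its full-length transcript OVOL1-201 had 12.6 and 8.7 counts in the shKLF5 libraries, against 0 in scramble. OVOL1-203 had 5.3 and 0 counts in the shKLF5 libraries, against 4.0 in scramble, and OVOL1-202 had 1.0 and 2.0, against 0.

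GRHL2 (ENSG00000083307; chromosome 8, 101492432 to 101669726, plus strand) had 11 and 11 counts in shKLF5 libraries 1 and 2, against 0 in scramble. Set against the floor of 3 counts for scramble, library 1 was at least 2.72-fold higher and library 2 at least 2.80-fold higher. A count of 0 allows up to 3 counts, so its absence from scramble is not shown at this depth. The counts lay mainly in the coding transcript GRHL2-201, with 8.2 and 9.0 in the shKLF5 libraries, against 0 in scramble, and the retained-intron transcript GRHL2-203 had 2.2 and 2.1, against 0. The adjusted p of GRHL2 was 0.474 by edgeR's quasi-likelihood test, and DESeq2 gave neither GRHL2 nor OVOL1 an adjusted p. GRHL2 and OVOL1 reached 10 counts only in the shKLF5 libraries, so passing the filter on low counts already favoured a higher value there.

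The direction of these 3 genes was the common one at their level. Of 6001 genes tested with a mean under 1 CPM, 59.9% lay above scramble in both shKLF5 libraries and 15.9% below it in both, the median log2 fold change being 0.70. GRHL1, GRHL3 and OVOL2 had means of 1 to 10 CPM, where 30.9% of 5290 genes were lower in both shKLF5 libraries and 41.6% higher in both (median 0.12). PRDM1 lay among the 9338 genes with 10 CPM or more, of which 52.9% lay below scramble in both and 21.8% above it in both (median -0.18). With each library's trend on abundance removed, the log2 fold change was 0.79 for OVOL1, 0.59 for ZNF750, -1.59 for GRHL3 and 0.55 for PRDM1.

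Markers of other cell types at low counts stood higher in the shKLF5 libraries too. The 7 leukocyte and plasma cell markers, relevant to PRDM1, summed to 3.30 and 3.34 TPM in the shKLF5 libraries, against 0.803 TPM in scramble, and 3 of the 7 reached 10 counts in any library. CD3E and MS4A1 had at most 7 counts in a shKLF5 library, against 0 in scramble. The 3 endothelial markers summed to 1.09 and 1.36 TPM, against 0.324 TPM in scramble, and the 4 melanocyte markers to 3.95 and 4.36 TPM, against 1.91 TPM in scramble. The 6 fibroblast markers summed to 26.3 and 15.4 TPM in the shKLF5 libraries, against 16.7 TPM in scramble. The 5 markers of glandular epithelium summed to 144 and 139 TPM, against 173 TPM in scramble, nearly all from KRT8 and KRT18. Their part in the values of the 7 factors was not tested.

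Genes that overlap the 7 on the genome were compared because the use of strand is not given in the sources used here. There were 14 such genes, and their part in the counts of the 7 was not tested. ZNF750 lies within TBCD, a tubulin folding gene on the other strand. Over its whole length TBCD had 1318 and 1295 counts in the shKLF5 libraries, against 1462 in scramble. PRDM1 lies within ATG5, an autophagy gene on the other strand with 1102 and 768 counts, against 763 in scramble. AL022067.1, inside PRDM1 on the same strand, had 8 and 5 counts, against 0 in scramble. GRHL3 overlaps STPG1 at its far end, with 266 and 653 counts, against 280 in scramble, and AL138902.1 at its start, with 18 and 11 counts, against 23 in scramble.

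The annotated OVOL2 region overlaps SNX5, which had 3488 and 3444 counts in the shKLF5 libraries, against 4530 in scramble, and MGME1, with 1109 and 1494, against 1140 in scramble. It also holds SNORD17, with 39 and 52 counts, against 63 in scramble, and PTMAP3, with 1 and 2, against 1. OVOL1 overlaps OVOL1-AS1, with 5 and 4 counts, against 5 in scramble, and AP001266.1, with 3 and 4, against 6 in scramble. The antisense gene AP001207.3 at GRHL2 had 1 and 0 counts, against 0 in scramble, and the pseudogenes AP001207.2 and AP001207.1 had 0 in all 3 libraries.

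Upstream and parallel regulators of the squamous differentiation circuit went both ways, in numbers that moved with the scaling. Of 15 such genes 14 were tested, 0 were called, 5 were higher by value in both shKLF5 libraries and 3 lower in both (35.7% and 21.4%, on a background of 37.9% and 36.5%), and the median log2 fold change was 0.20. With library size alone 10 stood above scramble and 2 below it in both, and with limma on log2(TPM + 1) 9 and 2. The median over all genes was also higher in these settings, at 0.467 and 0.264, against 0.039 with TMM. The 2 with the smallest p were lower. NOTCH1, a receptor that starts squamous differentiation, had 2965 and 1772 counts in the shKLF5 libraries, against 4857 in scramble, with a log2 fold change of -1.45 (SE 0.39). TP63, the lineage factor that induces ZNF750, had 4939 and 2047 counts, against 8380 in scramble, with a log2 fold change of -1.68 (SE 0.49). CEBPA, a factor of suprabasal keratinocytes, stood at 0.91 (SE 0.51), and EHF, an epithelial ETS factor, at 0.85 (SE 0.55).

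None of the partners of ZNF750 and the relatives of the grainyhead genes was called. KLF4, which acts with ZNF750, was named after its values were seen and had 1320 and 1531 counts in the shKLF5 libraries, against 1021 in scramble. Its log2 fold change was 0.07 (SE 0.37). Of the 5 partners 3 (60%) were lower in both shKLF5 libraries and 0 higher in both (median -0.36), on a background of 36.5% and 37.9%. KDM1A, a histone demethylase, stood at -0.51 (SE 0.38), the corepressors CTBP2 and CTBP1 at -0.47 (SE 0.37) and -0.36 (SE 0.35), and RCOR1 at -0.33 (SE 0.57). With library size alone 0 partners were lower in both and 1 was higher in both, and with limma on log2(TPM + 1) 0 and 2. In these settings too the median over all genes was higher, at 0.467 and 0.264, against 0.039 with TMM. Of the CP2 branch of the grainyhead superfamily, TFCP2L1 stood at 0.93 (SE 0.64), UBP1 at -0.53 (SE 0.37) and TFCP2 at -0.23 (SE 0.36).

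Epithelial genes known as grainyhead targets split by identity. Of 20 listed, 17 were tested and 0 called. By value 9 (52.9%) were higher in both shKLF5 libraries and 6 (35.3%) lower in both, on a background of 37.9% and 36.5%. The median log2 fold change was 0.33. CDH1, the gene for E-cadherin, had 5367 and 3577 counts in the shKLF5 libraries, against 9283 in scramble, with a log2 fold change of -1.47 (SE 0.37). EPCAM, an epithelial adhesion gene, had 4766 and 3674 counts, against 7100 in scramble (-1.16, SE 0.35), and DSP, a desmosomal plaque gene, stood at -0.93 (SE 0.39). ESRP1, an epithelial splicing regulator, had 44 and 292 counts, against 18 in scramble, a wide gap between the shKLF5 libraries. CLDN3, CLDN7 and RAB25, named after their values were seen, had at most 6 counts in any library. Restricted to means of 5 CPM or more, the list split evenly, with 4 above scramble and 4 below it in both.

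Mesenchymal genes that OVOL and grainyhead factors oppose in other epithelia were mostly low. Of 8 listed, 7 were tested and 0 called. By value 4 (57.1%) were higher in both shKLF5 libraries and 1 (14.3%) lower in both, on a background of 37.9% and 36.5%. The median log2 fold change was 0.42, being 0.96 in library 1 and 0.02 in library 2. TWIST1, named after its values were seen, was 1 of the 4 that were higher, with 10 and 8 counts, against 6 in scramble. SNAI2, named likewise, was the 1 that was lower in both after TMM scaling (-0.20, SE 0.35). By raw count it had 2251 and 2236, against 1944 in scramble. Restricted to means of 5 CPM or more, 1 was higher in both and 0 lower. VIM, encoding vimentin, had 141 and 194 counts in the shKLF5 libraries, against 39 in scramble (1.69, SE 0.59). SNAI1, a repressor of CDH1, had 129 and 76 counts, against 25 in scramble (1.62, SE 0.66). ZEB1 had 335 and 280 counts, against 173 in scramble, with a log2 fold change of 0.42 (SE 0.47). CDH2, encoding N-cadherin, had 3331 and 662 counts, against 980 in scramble, so the shKLF5 libraries lay on either side of scramble.

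Late differentiation genes were more often lower than higher by value, by a margin that varied with the processing. Of 27 listed, 16 were tested, 0 were called by edgeR's quasi-likelihood test, 11 (68.8%) were lower in both shKLF5 libraries and 3 (18.8%) higher in both, on a background of 36.5% and 37.9%, and the median log2 fold change was -0.74. The numbers lower and higher were 9 and 5 with library size alone and 7 and 6 with limma on log2(TPM + 1). They were 13 and 9 with no filter on low counts and 3 and 2 at means of 5 CPM or more. The median log2 fold change over all genes was 0.467, 0.264, 0.331 and 0.02 in these settings, against 0.039 in the main one. The background shares are from the main setting only. KRT13, a suprabasal keratin of the esophagus, had 2426 and 568 counts in the shKLF5 libraries, against 10155 in scramble, and KRT4, its partner, had 5 and 0, against 70 in scramble. DESeq2 called both, with adjusted p of 0.0018 and 0.0257, on its background of 0.687% of all genes given an adjusted p. KLK7, a protease of skin shedding, had 23 and 10 counts, against 58 in scramble (-2.22, SE 0.66). KRT78 had 14 and 13 counts, against 1 in scramble. With FLG and ABCA12, both named after their values were seen, it made up the 3 tested genes higher in both shKLF5 libraries. FLG was well counted, with 3800 and 1948 counts, against 913 in scramble (1.24, SE 0.48). ABCA12 had 209 and 351 counts, against 106 in scramble. TGM1, the crosslinking enzyme known as a GRHL3 target, was named after its values were seen and had 33 and 38 counts, against 48 in scramble (-0.84, SE 0.58). The terminal markers IVL, LOR, CRNN and MAL, named after their values were seen, had at most 4 counts in any library, and 10 of the 27 genes stayed under 10 counts in every library. The summed squamous markers also stood lower in the shKLF5 libraries, with the values given above, although SOX2 had 7876 and 2185 counts, against 5899 in scramble. Their part was not tested.

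Genes that PRDM1 represses in lymphocytes, or works beside there, split by value into 4 above and 3 below scramble in both shKLF5 libraries, on a background of 37.9% and 36.5%. With the abundance trend removed, 2 stood above in both. None was called, and the median log2 fold change was 1.14, also with the scramble count of IRF4 set at the floor of 3. By library the median was 0.10 in library 1 and 1.67 in library 2. BCL6, a repressor that opposes PRDM1 in B cells, had 828 and 749 counts in the shKLF5 libraries, against 173 in scramble (1.78, SE 0.44). PAX5, a B cell factor, had 68 and 54 counts, against 7 in scramble (2.69, SE 0.76). IRF4, which acts with PRDM1 in plasma cells, had 3 and 17 counts, against 0 in scramble, so that library 1 did not exceed the floor of 3 counts. ID3 had 5222 and 1099 counts, against 5702 in scramble (-1.27, SE 0.71). Over the 7 lists, edgeR's quasi-likelihood test gave an unadjusted p under 0.05 to 2 of the regulators, 0 of the ZNF750 partners, 0 of the relatives, 4 of the grainyhead targets, 2 of the mesenchymal genes, 6 of the late differentiation genes and 3 of the genes linked to PRDM1, on the background of 9.18% of all genes. Of these, PAX5, IRF4 and KRT78 reached 10 counts only in the shKLF5 libraries and KRT4 only in scramble, and so passed the filter through the group where they were high. DESeq2 called 2 genes of the lists, KRT13 and KRT4, on its background of 0.687% of all genes given an adjusted p.

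**Figure D5:**
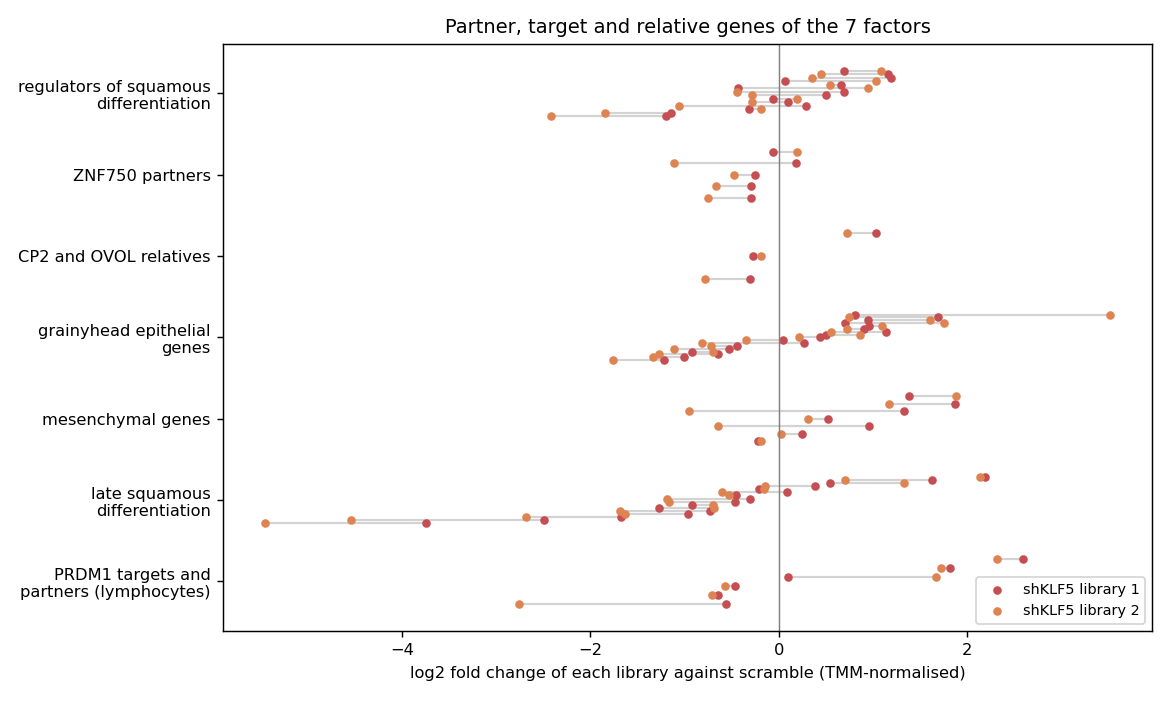
Log2 fold change over scramble (x axis) of each tested gene in 7 companion lists, in shKLF5 library 1 (red) and library 2 (orange), joined by a grey line; IRF4, at 0 in scramble, is left out. KRT4 and KRT13 lie furthest to the left among late differentiation genes, and no list lies wholly on 1 side of 0.

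Genes whose levels followed those of the 7 were sought among protein-coding genes averaging 5 CPM or more, by the largest difference in centred log2 CPM over the 3 libraries. For GRHL3 the nearest of 10375 genes were AKR1C2 (0.035), EFNB2 (0.043) and STARD5 (0.051). AKR1C2 had 15328 and 8589 counts in the shKLF5 libraries, against 27118 in scramble. For PRDM1 they were DDAH1 (0.051), GNAI1 (0.052) and ACAD8 (0.073), and DDAH1 had 1149 and 467 counts, against 451 in scramble. For ZNF750 they were FICD (0.020), RAC2 (0.026) and GGT1 (0.032), and for OVOL1 they were GNG4 (0.060), MYO15A (0.092) and BMF (0.105). GRHL2 was nearest to ABL2 (0.156), KRT75 (0.196) and TP53INP2 (0.263), GRHL1 to ARID2 (0.001), FAM49B (0.003) and RPL22 (0.008), and OVOL2 to DZIP1 (0.004), UBE2R2 (0.007) and BCL7C (0.008). With 3 libraries many genes come this close, so the likeness is a description only.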

How the data were processed

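RNA from 2 shKLF5 libraries and 1 scramble library of TE5 cells was sequenced after TruSeq preparation, per the labels' protocols. The authors deposited 1 kallisto-style table per library, and kallisto, DESeq2 and hg19 are named in the submitters' processing notes, without versions. The deposited estimated counts are unscaled values per transcript, per the file headers. The TPM that were deposited are counts over effective length, with equal sums in all libraries, per the file headers. Neither transcript set nor strand setting is given in the sources used here. Transcripts were matched by identifier to GENCODE 29 (GRCh38), 181857 of 196354. The rest held 3.42% and 3.40% of counts in shKLF5 libraries 1 and 2 and 3.05% in scramble and were left out.

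Counts were summed per gene and rounded. The quasi-likelihood F test of edgeR 4.0.16 (R 4.3.3, legacy = FALSE, filterByExpr, TMM) was run over 20629 genes, with significance at 0.05. The shKLF5 libraries had TMM factors of 1.11 and 1.10, against 0.82 for scramble. With 1 residual degree of freedom and 6.86 prior degrees of freedom, the common coefficient of biological variation came to 32.9%. Here SE is the absolute log2 fold change over the square root of F. Values of 1 library against scramble had a prior count of 2 added and are untested. Poisson intervals are exact, at 95%, and like the floor of 3 counts cover counting error only, since the labels name no molecular identifiers. The scripts were tested on simulated data. Alternatives used median-ratio or no composition scaling, other filters, DESeq2 1.42.0, edgeR's legacy fit, limma 3.58.1 on log2(TPM + 1), length-scaled TPM, each shKLF5 library left out and, added after seeing the data, an abundance trend removed.

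Named were the 7 genes, their transcripts with at least 10% of TPM in any library, overlapping genes, up to 4 genes a list with the smallest p, and the 3 nearest patterns. The genes and the 7 lists were chosen with earlier results of these data known.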

Additional observations from a re-analysis of the deposited data

How the results depend on the processing

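The count of genes called, 0 each way in the edgeR quasi-likelihood test, was 63 higher and 55 lower with DESeq2 and 5 higher and 16 lower with edgeR's legacy fit, and none of the 7 factors was among them. GRHL2, GRHL3, OVOL1 and ZNF750 kept their sign under every alternative that gave them a value. Their sizes were smaller with limma on log2(TPM + 1). They were 0.18 for GRHL2, -0.61 for GRHL3 (unadjusted p 0.208), 0.27 for OVOL1 and 0.20 for ZNF750. The added 1 understates the change of genes at low TPM, here GRHL2, OVOL1 and ZNF750. GRHL3 differed less in TPM itself than in normalised CPM. It had 4.12 and 3.39 TPM in the shKLF5 libraries, against 6.25 in scramble. In normalised CPM it had 6.42 and 3.83, against 15.9 in scramble. GRHL1 turned to 0.05 with library size alone, 0.29 with length-scaled TPM and 0.25 with limma on log2(TPM + 1). OVOL2 turned to 0.13 with library size alone and to 0.0036 with limma. Scaling by library size alone moved the median over all genes to 0.467, against 0.039 with TMM. With limma on log2(TPM + 1) the median over all genes was 0.264. Values near 0 in these 2 settings thus lay below the typical gene. With each shKLF5 library left out in turn the log2 fold change ran from -0.51 to -0.22 for GRHL1, 2.58 to 2.61 for GRHL2, -2.04 to -1.30 for GRHL3, 0.83 to 1.48 for OVOL1, -0.43 to -0.18 for OVOL2, 0.61 to 1.09 for ZNF750 and -0.27 to 0.90 for PRDM1, whose sign was negative without library 1. A single library against scramble is a value with no test. For GRHL2 the fitted value depends on the prior count, since scramble had 0 counts. Only GRHL3 and PRDM1 remained in the test when a mean of 5 CPM was required, and GRHL2 had no value with length-scaled TPM. Of 98 recounts of the companion lists, 26 moved by over 1.5 times. Depth limits GRHL1, GRHL2, OVOL1 and ZNF750, each with under 50 counts a library. No paired analysis was possible because the labels number only the shKLF5 libraries and there is 1 scramble library. The cause of these shifts was not tested.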
